A study of Mus musculus with 6 samples.

Results

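Genes of zinc handling were examined in the gastrocnemius muscle of mice with C26 cancer cachexia: the metallothionein genes Mt1 and Mt2, the zinc-sensing transcription factor gene Mtf1, the ZIP importer genes Slc39a14 and Slc39a1, and the ZnT exporter genes Slc30a1 and Slc30a5. These 7 of the 13363 listed genes were chosen by name as zinc-handling genes and selected on their C26 against Control differences in the same muscles, so their differences between cachectic and control muscle are described without a test. RNA sequencing was performed on 3 C26 and 3 Control samples of gastrocnemius from male Balb/c mice, bought at 6 weeks of age and acclimated for 1 week. The C26 mice had received a subcutaneous inoculation of C26 cells, a colon adenocarcinoma line of the mouse that causes wasting, and the Control mice carried no tumor. One tumor line in a single strain and sex was thus studied, and the replicates are numbered samples of a group. In whole muscle, fewer cells of a type and less RNA per cell cannot be told apart.

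Metallothioneins are small cysteine-rich proteins that bind zinc and copper and buffer their free level in the cell. Their genes are turned on by metals through the zinc sensor MTF-1, and also by glucocorticoids and by IL-6 through STAT3. ZIP proteins carry zinc into the cytosol, whereas ZnT proteins carry it out of the cytosol, across the cell membrane or into organelles. ZIP14, the product of Slc39a14, also carries iron and manganese and is known as an acute-phase gene of the liver and as a gene induced in muscle during cachexia.

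Values are given as FPKM, a read level corrected for transcript length and library size, which can be compared between genes. Differences are log2 fold changes of C26 over Control on the log2(TPM + 1) scale, with the standard error (SE) of the limma fit over all listed genes. The summed FPKM of the listed genes ranged from 531061 to 585169 in C26 and from 626992 to 688300 in Control muscle, and the read depth behind them is unknown. The extraction text of the labels also names a human cell line, THP-1, but all 12 skeletal muscle markers were listed, with a summed level of 68773 to 104034 FPKM in C26 and 141757 to 152388 FPKM in Control samples. Of these 12 markers, Mylpf and Pvalb (16.7%) were called lower in C26 muscle and 0 were called higher (0 also at an unadjusted p under 0.05). Over all listed genes, 14.5% were called lower and 19.4% higher. The fast myosin genes Myh4, Myh2 and Myh1 had log2 fold changes of 0.23, 0.34 and 2.13. C26 replicate 3 stood apart from C26 replicates 1 and 2 in Myh1 (2555.4 FPKM against 298.97 and 254.27) and Mb (4906.06 against 275.23 and 73.96), and C26 replicate 2 was the lowest of the 6 muscles for Mylpf, Pvalb and Mb. The part of these differences between muscles in the values below was not tested.

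The DNA around the start sites is shown first, since the short metal response element to which MTF-1 binds is the known link between zinc and these genes. Windows of 300 bases, from 250 before to 50 after the RefSeq start, were held for 6 of the 7 genes (GRCm38.p6). Slc39a14 had no window and was not searched for any motif. The letters TGCACNC and TGCGCNC were searched on both strands, and matches that overlap at different positions were each counted. The Mt2 window held 4 matches, the Mt1 window 3, the Slc30a1 window 2 and the Slc30a5 window 1, whereas the windows of Mtf1 and Slc39a1 held 0. From the RefSeq start, the Mt2 matches lay at -223, -128, -50 and 4, and the Mt1 matches at -23, 2 and 20. The counts depend on that start, and metal response elements outside the windows were not counted. Of all 32851 windows, 25.7% held at least 1 match, 7.11% at least 2, 1.97% at least 3 and 0.517% at least 4. The stretches with matches follow, 5′ to 3′ on the strand of the gene, with the matches in capitals. A match of the other strand appears as its reverse complement, such as the last 2 of the Mt2 gene and all of Slc30a1 and Slc30a5.
Mt2, chr8:94172368-94172607, plus strand, upstream of the start: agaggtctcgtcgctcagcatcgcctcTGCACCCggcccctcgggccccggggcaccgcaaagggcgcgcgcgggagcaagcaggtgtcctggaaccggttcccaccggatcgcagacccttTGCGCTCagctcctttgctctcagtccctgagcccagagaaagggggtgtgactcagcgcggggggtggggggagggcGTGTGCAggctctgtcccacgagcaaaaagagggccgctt
Mt2, chr8:94172610-94172639, plus strand: agaattcgggtcGTGCGCAggcccaggggc
Mt1, chr8:94179054-94179083, plus strand: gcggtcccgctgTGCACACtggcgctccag
Mt1, chr8:94179088-94179117, plus strand: ctcTGCACTCcgcccgaaaagTGCGCTCgg
Slc30a1, chr1:191906726-191906755, plus strand: aacgggggttccGAGTGCAaagcaaagttt
Slc30a1, chr1:191906800-191906829, plus strand: gcctccgggccGAGCGCAgtcgccgcggac
Slc30a5, chr13:100833458-100833487, minus strand: acgtgtccaccaGCGCGCAggcgcaggatt

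In the same windows the STAT motif TTCNNNGAA had 0 matches in all 6 genes and was held by 8.3% of all windows. The hexamer AGAACA, to which the glucocorticoid receptor binds, had 1 match each in Mtf1 and Slc30a5 and was held by 19% of all windows. The antioxidant response motif TGACNNNGC had 1 match each in Mt2, Slc39a1, Slc30a1 and Slc30a5 and was held by 12.4% of all windows. These matches describe letters near the start, and sites farther away were not searched.

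Mt1 and Mt2 were the members with the highest levels in cachectic muscle. Mt1 (GENCODE, GRCm38, chr8:94179082-94180327, plus strand) encodes a metallothionein made in most tissues. Its level was 576.79, 1729.79 and 757.2 FPKM in C26 replicates 1, 2 and 3, and 43.9, 41.12 and 34.95 FPKM in Control replicates 1, 2 and 3. All 3 C26 muscles lay far above the 3 Control muscles, which differed little from one another, and C26 replicate 2 stood above the other C26 muscles. The means were 1021 ± 620.2 FPKM (SD, n = 3) in C26 and 40 ± 4.58 FPKM (SD, n = 3) in Control muscle, a log2 fold change of 4.71 (SE 0.39). Among the 13363 genes of each muscle, Mt1 ranked 123rd, 30th and 87th by level in the C26 and 1378th, 1391st and 1645th in the Control muscles.

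Mt2 lies beside Mt1 on chromosome 8 (chr8:94172664-94173568, plus strand), with 5513 bases between them, and encodes the other widely made metallothionein. Its level was 120.11, 890.7 and 318.52 FPKM in the C26 and 12.14, 8.66 and 9.98 FPKM in the Control replicates, in the same order. The groups did not overlap, the order of the C26 muscles was that of Mt1, and the C26 muscles differed among themselves more than for Mt1. The means were 443.1 ± 400.1 FPKM (SD, n = 3) and 10.3 ± 1.76 FPKM (SD, n = 3), a log2 fold change of 5.13 (SE 0.66). C26 replicates 1 and 2 each weighed on the size: the log2 fold change was 5.85 without C26 replicate 1 and 4.43 without C26 replicate 2.

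**Figure D1:**
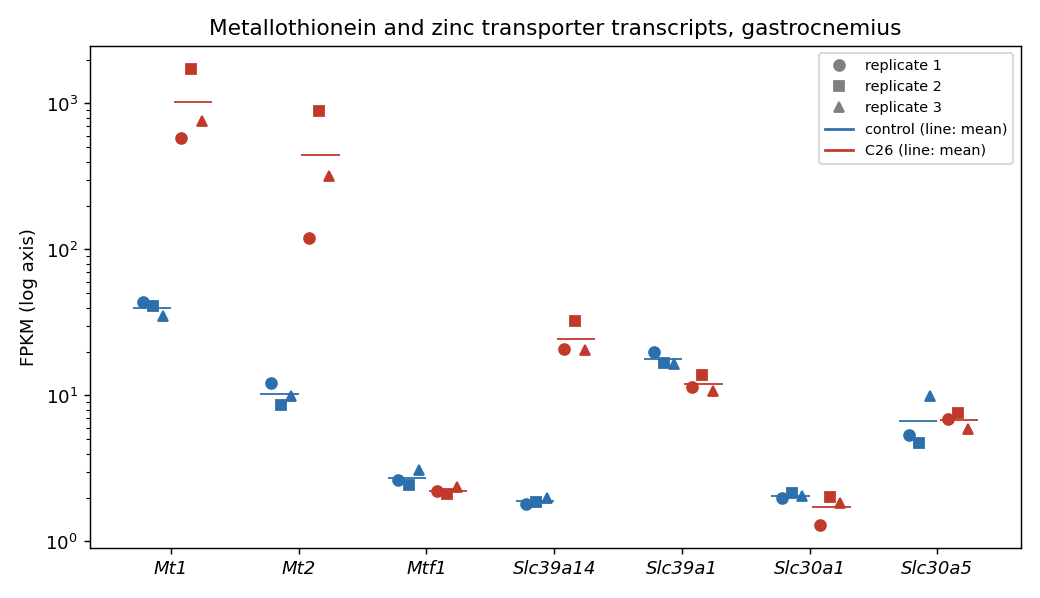
FPKM (log axis) of the 7 zinc-handling genes in each muscle, C26 in red and Control in blue, with a symbol for each replicate number and a line at the group mean. Mt1, Mt2 and Slc39a14 are higher in every C26 muscle than in any Control muscle, and C26 replicate 2 is the highest for all 3.

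The Mt1 to Mt2 ratio of FPKM was 4.8, 1.94 and 2.38 in the C26 and 3.62, 4.75 and 3.5 in the Control replicates. The ratios of the groups overlapped, and the highest single ratio belonged to C26 replicate 1, the muscle with the lowest level of both genes among the C26 muscles. Together the pair made up 0.131%, 0.483% and 0.184% of the summed FPKM of the C26 muscles and 0.00856%, 0.00794% and 0.00653% of that of the Control muscles. Mt1 and Mt2 are paralogs, but their GENCODE transcripts shared 0 stretches of 50 bases, the read length, and the longest stretch in common was 20 bases. The closest pair of 50-base stretches differed at 5 positions. The antisense gene Gm45774 overlaps Mt2 on the other strand, and whether the libraries kept the strand is not given in the sources used here, so reads of Mt2 and Gm45774 cannot be told apart.

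Mt3, the brain-type metallothionein farther along the same cluster, was measured as a gene outside the chosen 7. It stood at 1.4, 2.98 and 1.77 FPKM in the C26 and 2.59, 1.06 and 2.93 FPKM in the Control replicates. The groups overlapped widely, with a log2 difference of 0.12 (SE 0.31, adjusted p = 0.775 by limma with Benjamini-Hochberg adjustment) and a 95% interval from -0.63 to 0.88. The neighbours Mt1 and Mt2 thus stood at high levels in C26 muscle while no difference was detected for Mt3.

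Mtf1 (chr4:124802104-124849800, plus strand) encodes MTF-1, the zinc finger factor that senses zinc and binds metal response elements. Its level was 2.22, 2.12 and 2.36 FPKM in the C26 and 2.64, 2.44 and 3.11 FPKM in the Control replicates. The FPKM of all C26 muscles were slightly under those of all Control muscles, but the groups overlapped after scaling to log2(TPM + 1), with a log2 fold change of -0.05 (SE 0.13). The difference ranged from -0.2 with the FPKM as deposited to 0.19 after quantile normalization, so its sign depends on the scaling. The protein-coding gene 1110065P20Rik overlaps Mtf1 on the opposite strand.

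Slc39a14 (chr14:70303469-70351425, minus strand) was the transporter gene with the largest difference among the 7. Its level was 20.7, 32.57 and 20.42 FPKM in the C26 and 1.82, 1.87 and 1.98 FPKM in the Control replicates. The Control muscles were nearly equal, and each C26 muscle lay far above them, with C26 replicate 2 again the highest. The means were 24.6 ± 6.94 FPKM (SD, n = 3) and 1.89 ± 0.0819 FPKM (SD, n = 3), a log2 fold change of 3.49 (SE 0.19). The difference stayed between 3.3 and 3.64 when any 1 muscle was left out, and between 3.11 and 3.84 with the other scalings and models tried. Slc39a14 has 13 annotated transcripts, and the values do not tell which of them was present.

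Slc39a1 (chr3:90248172-90253612, plus strand) encodes ZIP1, a zinc importer made in most cells. Its level was 11.43, 13.72 and 10.66 FPKM in the C26 and 19.97, 16.79 and 16.43 FPKM in the Control replicates. All C26 muscles lay below all Control muscles, by far less than the gap of Slc39a14 and in the other direction. The means were 11.9 ± 1.59 FPKM (SD, n = 3) and 17.7 ± 1.95 FPKM (SD, n = 3), a log2 fold change of -0.34 (SE 0.15). It was -0.54 with the FPKM as deposited and -0.62 after quantile normalization.

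The make-up of the ZIP messages therefore differed between the groups. Slc39a14 accounted for 39.9%, 47.8% and 42.1% of the summed FPKM of the 10 listed ZIP genes in the C26 and 3.94%, 4.47% and 4.66% in the Control replicates. The share of Slc39a1 was 22%, 20.2% and 22% in the C26 and 43.3%, 40.1% and 38.7% in the Control replicates. A share falls when another gene of the sum is higher, so part of this difference comes with the higher Slc39a14. Slc39a14 thus held the largest share in each C26 muscle and Slc39a1 in each Control muscle. The ZIP sum was 48.5 to 68.1 FPKM in C26 and 41.9 to 46.2 FPKM in Control muscle. Without Slc39a14 it was 28.1 to 35.5 FPKM in C26 and 40 to 44.3 FPKM in Control muscle. The summed FPKM of all genes was lower in C26 muscle, and after scaling to TPM with TMM factors the sum without Slc39a14 was 55.3, 60.8 and 53.1 in the C26 and 66.4, 67.7 and 58.5 in the Control replicates, so the groups overlapped. On that scale the sum with Slc39a14 was 91.8 to 116.6 in C26 and 61.4 to 70.9 in Control muscle.

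**Figure D2:**
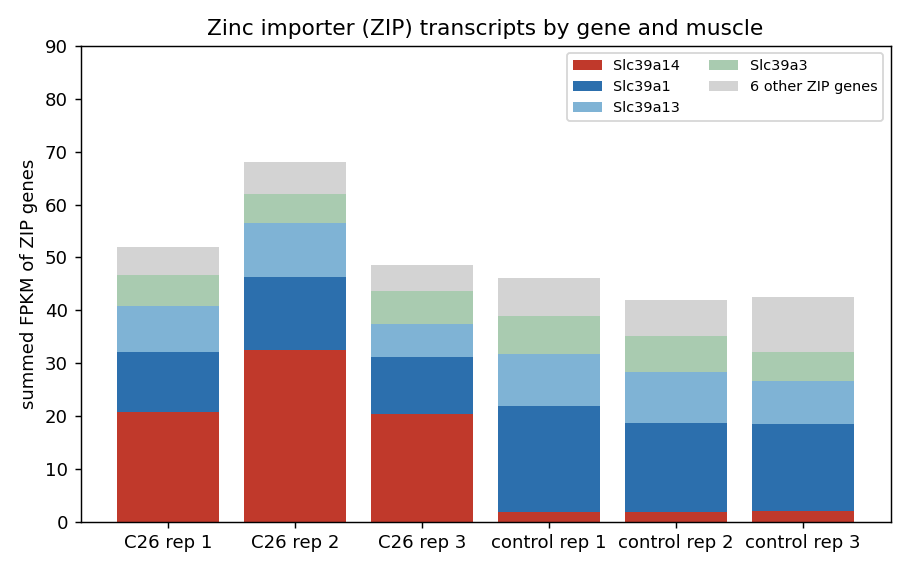
Summed FPKM of the listed ZIP importer genes in each of the 6 muscles, stacked as Slc39a14, Slc39a1, Slc39a13, Slc39a3 and 6 other ZIP genes. Slc39a14 takes 39.9% to 47.8% of the column in C26 and 3.94% to 4.66% in Control muscle.

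Slc30a1 (chr1:191906767-191913247, plus strand) encodes ZnT1, the exporter of the cell membrane and a classic target of MTF-1. Its level was 1.3, 2.03 and 1.83 FPKM in the C26 and 1.98, 2.14 and 2.04 FPKM in the Control replicates. The groups overlapped, and C26 replicate 1 was the lowest of the 6 muscles. The log2 fold change was -0.04 (SE 0.17) and ranged from -0.18 to 0.28 over the other scalings and models, so no direction can be given. The antisense gene 1700034H15Rik overlaps Slc30a1.

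Slc30a5 (chr13:100802648-100833427, minus strand) encodes ZnT5, which loads zinc into the secretory pathway. Its level was 6.85, 7.58 and 5.85 FPKM in the C26 and 5.39, 4.7 and 9.94 FPKM in the Control replicates. Control replicate 3 was the highest of all muscles and the other Control muscles were the lowest, so the C26 values lay within the Control range. The log2 fold change was 0.28 (SE 0.24), and it was 0.53 without Control replicate 3. The summed FPKM of the 7 listed ZnT genes was 43.2 to 48.8 in C26 and 46.9 to 48.7 in Control muscle, and the groups overlapped after scaling to TPM too (76.4 to 92.4 and 70.2 to 80.9).

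Of the 7 genes, Mt1, Mt2 and Slc39a14 were called higher in C26 muscle by limma with an adjusted p under 0.05, a call made for 19.4% of all listed genes. The same 3 also passed the study's criterion for differentially expressed genes, a fold change above 4, as did 1.76% of all genes in that direction. Of the 7, 0 were called lower (0 also at an unadjusted p under 0.05), against 14.5% of all genes. The groups did not overlap on the log2 scale for these 3 genes in the higher direction, as for 27% of all genes, and for Slc39a1 in the lower direction, as for 26.5% of all genes. The counts restate how the genes were chosen and carry no weight beyond that.

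**Figure D3:**
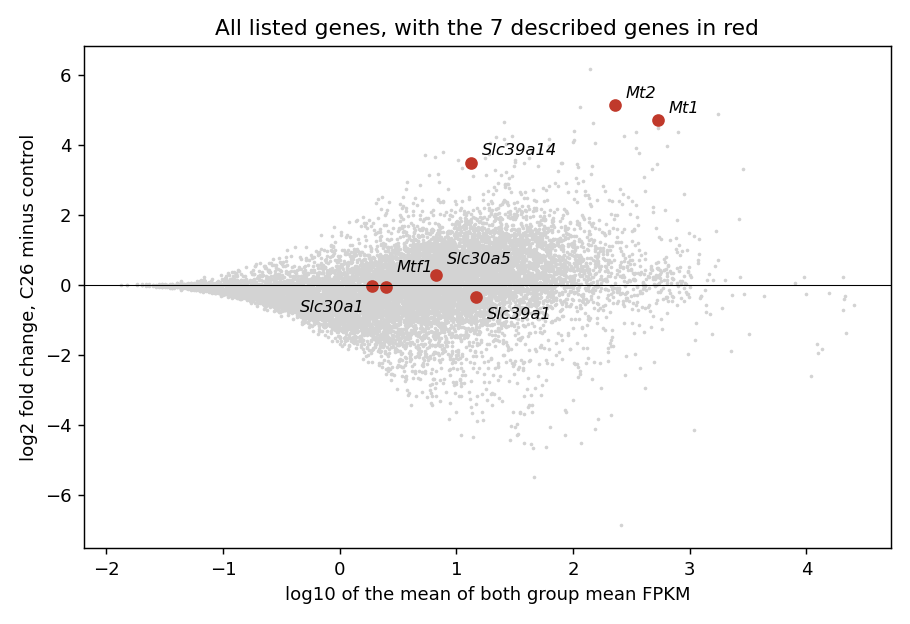
Log2 fold change of C26 over Control (vertical) against log10 of the mean of both group mean FPKM (horizontal) for all 13363 listed genes, with the 7 zinc-handling genes in red. Mt2 (5.13), Mt1 (4.71) and Slc39a14 (3.49) lie far above 0, and Mtf1, Slc39a1, Slc30a1 and Slc30a5 lie near 0.

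The order of levels differed between the groups. In Control muscle the mean FPKM ran from Mt1 (40) through Slc39a1 (17.7), Mt2 (10.3), Slc30a5 (6.68), Mtf1 (2.73) and Slc30a1 (2.05) to Slc39a14 (1.89). Among these neighbours, Mt2 and Slc30a5 overlapped, and Slc30a1 and Slc39a14 met at 1.98 FPKM. In C26 muscle the order was Mt1 (1021), Mt2 (443.1), Slc39a14 (24.6), Slc39a1 (11.9), Slc30a5 (6.76), Mtf1 (2.23) and Slc30a1 (1.72), and Mt1 and Mt2 were the neighbours whose values overlapped. By group mean, Slc39a14 was thus the lowest of the 7 in Control muscle and the highest of the transporter genes among the 7 in C26 muscle.

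Both transporter families were then followed beyond the chosen genes. Of the 13 other listed ZIP and ZnT genes, 2 (15.4%) were called lower in C26 muscle and 0 higher (0 also at an unadjusted p under 0.05). Over all listed genes, 14.5% were called lower and 19.4% higher. The median log2 fold change of the 13 was 0.04, beside -0.05 over all listed genes. Slc39a11, a ZIP of intracellular membranes, fell from 1.18, 1.06 and 1.44 FPKM in the Control to 0.21, 0.52 and 0.42 FPKM in the C26 replicates (log2 fold change -0.78, SE 0.17, adjusted p = 0.0156 by limma with Benjamini-Hochberg adjustment). Slc39a2 fell from 0.44, 0.45 and 0.46 FPKM in the Control to 0.04, 0.18 and 0.07 FPKM in the C26 replicates (log2 fold change -0.54, SE 0.14, adjusted p = 0.0267 by the same test). Both are low in this muscle, and both calls were lost when C26 replicate 1 or Control replicate 1 was left out (adjusted p = 0.0541 and 0.0557 by limma for Slc39a11, and 0.106 and 0.083 for Slc39a2). The call of Slc39a2 was also lost without Control replicate 2 (adjusted p = 0.0716 by limma) and with a replicate block (adjusted p = 0.0685 by limma). Quantile normalization ended both calls, with log2 differences of -0.37 for Slc39a11 (adjusted p = 0.156 by limma) and -0.3 for Slc39a2 (adjusted p = 0.209 by limma). With a pseudocount of 0.1 the sizes were -1.4 and -1.65.

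None of the other 11 was called in the fit to all 6 muscles. Among the ZIP genes, the log2 fold changes were 0.14 for Slc39a10, 0.07 for Slc39a3, 0.06 for Slc39a13, -0.03 for Slc39a9, -0.26 for Slc39a8 and -0.42 for Slc39a6. Slc39a8 encodes ZIP8, the closest relative of ZIP14, and stood at 0.06 to 0.21 FPKM in C26 and 0.27 to 0.33 FPKM in Control muscle. Among the ZnT genes, the log2 fold changes were 0.36 for Slc30a4, 0.25 for Slc30a2, 0.19 for Slc30a6, 0.04 for Slc30a9 and -0.24 for Slc30a7. Slc30a4 was called higher when C26 replicate 3 was left out, with a log2 difference of 0.58 (adjusted p = 0.0318 by limma). Slc39a4, Slc39a5, Slc39a7, Slc39a12, Slc30a3, Slc30a8, Slc30a10 and Mt4 were not analysed here.

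**Figure D4:**
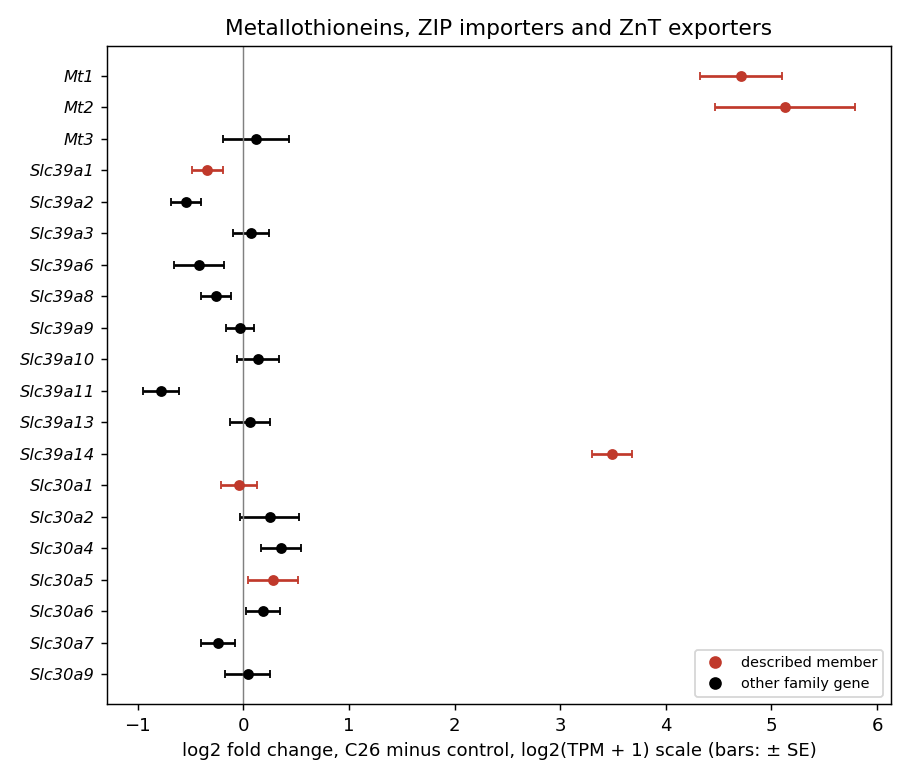
Log2 fold change of C26 over Control on the log2(TPM + 1) scale, with bars of 1 SE, for each listed metallothionein, ZIP and ZnT gene, with the chosen genes in red and the others in black. Mt2, Mt1 and Slc39a14 lie between 3.49 and 5.13, and the other genes shown lie between -0.78 and 0.36.

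Other genes that MTF-1 is known to control were compared as a list that left out the chosen 7. Of 7 such genes, 1 (14.3%) was called higher and 1 (14.3%) lower, beside 19.4% and 14.5% of all listed genes. The median log2 fold change was 0.14. The list is not split into genes that MTF-1 raises and genes it lowers, so these values give no direction of MTF-1 activity. Gclc, the catalytic subunit of the first enzyme of glutathione synthesis, rose from 3.91 ± 0.605 to 5.2 ± 0.309 FPKM (SD, n = 3), a log2 difference of 0.56 (adjusted p = 0.0224 by limma). Selenow, a muscle selenoprotein gene, fell from 2008.5 ± 196.3 to 979.8 ± 209.5 FPKM (SD, n = 3), a log2 difference of -0.84 (adjusted p = 0.0247 by limma). Leaving out C26 replicate 1, Control replicate 1 or Control replicate 2 ended both calls, and leaving out C26 replicate 2 did so too, with adjusted p from 0.0617 to 0.0829 for Gclc and from 0.0619 to 0.0928 for Selenow by limma. A replicate block also ended both calls (adjusted p = 0.0606 for Gclc and 0.0603 for Selenow by limma), and the FPKM as deposited ended that of Gclc (log2 difference 0.34, adjusted p = 0.0926 by limma). The other 5 genes, Ndrg1, Csrp1, Slc39a10, Slc40a1 and Pgf, had log2 fold changes from -0.5 to 1.14, and Slc39a10 also counts among the transporters above. Ndrg1 (-0.5, adjusted p = 0.0979 by limma) was lower in every C26 than in any Control muscle. Slc40a1 stood at 1.14 (adjusted p = 0.129 by limma). Without C26 replicate 2, 1 gene of the list other than Gclc was called higher. Without Control replicate 2, 1 gene other than Selenow was called lower.

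Metallothioneins also bind copper, and ZIP14 also carries iron. Of 11 other listed genes of copper handling, 2 (18.2%) were called higher and 2 (18.2%) lower. These shares are near those of all listed genes, 19.4% and 14.5%. Sod1, the copper- and zinc-binding superoxide dismutase, rose from 428.7 ± 12.4 to 914.8 ± 213.2 FPKM (SD, n = 3), a log2 difference of 1.28 (adjusted p = 0.00533 by limma). Sco2, which delivers copper to cytochrome c oxidase, had a log2 difference of 1.84 (adjusted p = 0.012 by limma, and 0.0519 without Control replicate 1). Commd1 (-0.95, adjusted p = 0.0272 by limma) and the copper transporter gene Slc31a2 (-0.51, adjusted p = 0.0464 by limma) were lower. With a replicate block the adjusted p of Slc31a2 was 0.118 by limma. The call of Commd1 was lost in 5 and that of Slc31a2 in all 6 of the fits with 1 muscle left out, the exception for Commd1 being the fit without C26 replicate 3.

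Of 17 listed genes of iron handling outside the chosen 7, of which Slc40a1 is also on the MTF-1 list, 2 (11.8%) were called higher and 3 (17.6%) lower. Over all listed genes the shares were 19.4% and 14.5%, so the iron list held no excess of higher calls. Tfrc, the transferrin receptor that takes up iron, fell from 25.2, 17 and 15.55 FPKM in the Control to 1.49, 2.58 and 2.08 FPKM in the C26 replicates, with no overlap and a log2 difference of -2.71 (SE 0.24, adjusted p = 0.00197 by limma). The ferrireductase gene Steap3 (-1.63, adjusted p = 0.00626 by limma) and the mitochondrial iron importer gene Slc25a37 (-1.06, adjusted p = 0.0116 by limma) were lower as well. Slc25a28, the other mitochondrial iron importer gene, rose by a log2 difference of 1.86 (adjusted p = 0.00293 by limma), and Hmox1, which releases iron from heme, by 1.03 (adjusted p = 0.0065 by limma). Slc39a14 and Tfrc, which both serve iron uptake, thus stood in opposite directions in the same muscles.

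Metallothionein genes are known to be induced by glucocorticoids, and Slc39a14 and the metallothionein genes by IL-6 through STAT3. Of 12 listed glucocorticoid-induced genes, 11 (91.7%) were called higher and 0 lower (0 also at an unadjusted p under 0.05). Over all listed genes, 19.4% were called higher and 14.5% lower. The median log2 fold change of the 12 was 2.08. The lists were chosen with earlier results of these data known, so the counts are descriptions, and what raised the members was not tested. Fkbp5, a co-chaperone of the glucocorticoid receptor, rose from 6.08, 7.07 and 6.8 FPKM in the Control to 68.38, 96.79 and 67.82 FPKM in the C26 replicates (log2 fold change 3.62, SE 0.18, adjusted p = 0.000822 by limma). Cebpd (4.38, adjusted p = 0.000822), Pdk4 (3.96, adjusted p = 0.00197) and Errfi1 (2.89, adjusted p = 0.00142) were the other genes of this list with the largest log2 fold changes by limma. The exception was Sgk1, a kinase gene, at 0.28 (adjusted p = 0.529 by limma).

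Of 13 listed STAT3-induced genes, 8 (61.5%) were called higher and 0 lower (0 also at an unadjusted p under 0.05). Over all listed genes, 19.4% were called higher and 14.5% lower. The median log2 fold change of the 13 was 0.99. Cebpd is also on the glucocorticoid list, and the lists were not made exclusive, so they are not separate readouts. This list too was chosen with earlier results known, and the part of STAT3 in the members' levels was not tested. Lcn2, for the acute-phase protein lipocalin, rose from 0.31, 0.23 and 0.93 FPKM in the Control to 5.59, 25.7 and 13.42 FPKM in the C26 replicates (log2 fold change 3.8, adjusted p = 0.0052 by limma, and 4.93 with a pseudocount of 0.1). Il6ra, for the IL-6 receptor, had a log2 difference of 3.58 (adjusted p = 0.00178 by limma) and the AP-1 gene Junb of 2.07 (adjusted p = 0.00848 by limma). Socs3, the feedback inhibitor of STAT3, was not called (log2 fold change -0.29, adjusted p = 0.716 by limma). Its level was 3.39 to 3.63 FPKM in C26 muscle and 10.8, 1.38 and 8.04 FPKM in the Control replicates. Control replicates 1 and 3 thus lay above every C26 muscle, and Control replicate 2 lay below. Without Control replicate 2, 1 gene of the list was called lower.

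**Figure D5:**
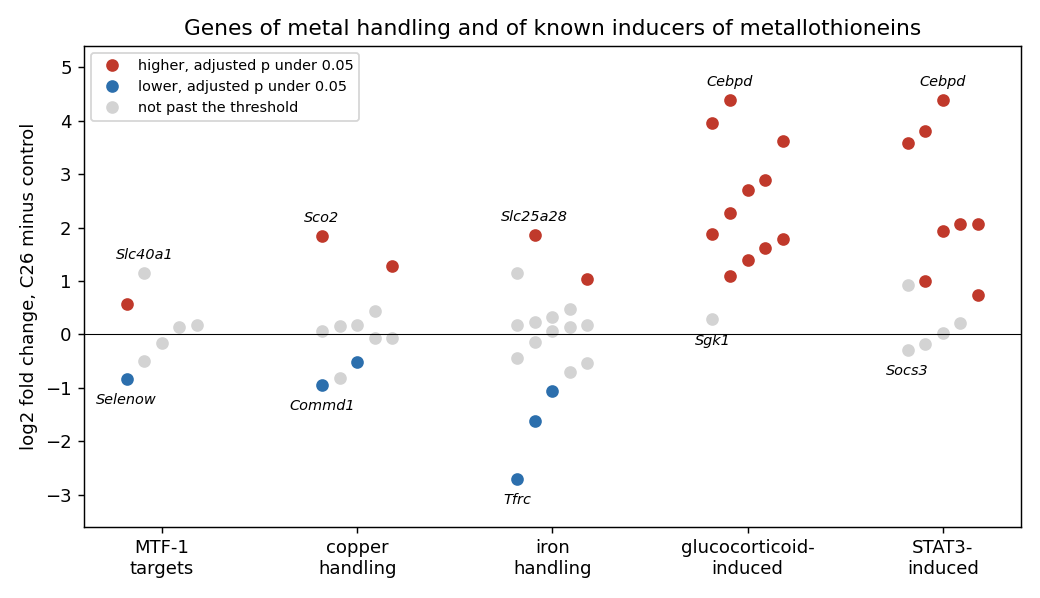
Log2 fold change of C26 over Control for each gene of the MTF-1, copper, iron, glucocorticoid and STAT3 lists, 1 point a gene, in red where called higher, blue where called lower and grey where not called, with the highest and lowest gene of each list named. Of the glucocorticoid-induced genes 11 of 12 are red, and of the STAT3-induced genes 8 of 13, beside 19.4% of all listed genes. The lists were chosen with earlier results of these data known.

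The genes whose pattern was most like that of the members were found by Pearson's r on the log2 scale over the 6 muscles, among genes with a mean of at least 1 FPKM. Tsacc (0.9988), Slc66a2 (0.9978), Galnt18 (0.996), Lrrc8a (0.9932) and Ap2m1 (0.9929) were most like the mean of Mt1 and Mt2, all with their highest level in C26 replicate 2. Fkbp5 (0.999), Uhrf1bp1l (0.999), Cdkn1a (0.9987), Ap1g1 (0.9985) and B4galt1 (0.9981) were most like Slc39a14. Such values describe mainly the gap between the groups, which all these genes share: 296 of 10448 genes had an r above 0.95 with the metallothionein mean and 872 of 10449 with Slc39a14. Between members, r was 0.99 for Mt1 with Mt2, 0.99 for Mt1 with Slc39a14 and -0.41 for Mt1 with Mtf1.

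Markers of other cell types were set beside these differences. The summed level of 10 macrophage and neutrophil markers was 94.9, 294.1 and 41.1 FPKM in the C26 and 56.6, 38.7 and 248.1 FPKM in the Control replicates. Of the 10, S100a8 and S100a9 (20%) were called higher and 0 lower (1 at an unadjusted p under 0.05). Over all listed genes, 19.4% were called higher and 14.5% lower. C26 replicate 2, the muscle with the highest Mt1, Mt2 and Slc39a14, also had the highest Cd68 (246.65 FPKM, against 34.85 and 6.46 in the other C26 and 1.75 to 5.77 in the Control replicates), whereas the defining macrophage marker Adgre1 was at 0.12 to 0.5 FPKM in all 6 muscles. Control replicate 3, the muscle with the highest Slc30a5, had Ptprc, a gene of all leukocytes, at 40.1 FPKM against 0.23 to 0.81 in the others. Lymphocyte genes were also high in that muscle alone among the 6: the B cell gene Cd79b stood at 134.43 FPKM against 0.05 to 0.82, and Cd52 at 255.98 FPKM against 0.33 to 2.77. Of the myeloid markers, Lyz2 (187.74 FPKM, against 23.09 to 44.05 in the others), Csf1r (8.34 against 1.63 to 4.94) and Itgam (0.66 against 0.12 to 0.48) were also highest there. The other myeloid markers, Cd68, Adgre1, Cd163, Mrc1, S100a8 and S100a9, were highest in other muscles. The part of such cells in the members' values was not tested.

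The summed level of 9 fat cell markers was 417.1 to 515.4 FPKM in C26 and 596.7 to 4371.6 FPKM in Control muscle, with 6 called lower and 0 higher (0 also at an unadjusted p under 0.05). Of 10 fibroblast markers, 6 were called lower and 0 higher, with sums of 301.6 to 483.9 against 760.8 to 1146.8 FPKM. Of 8 endothelial markers, 2 were called lower and 0 higher, with sums of 64.5 to 68.4 against 80.4 to 127.8 FPKM, and 0 of both lists were higher at an unadjusted p under 0.05. The shares called lower were 66.7%, 60% and 25% for the fat cell, fibroblast and endothelial lists. Over all listed genes, 14.5% were called lower and 19.4% higher. After scaling to TPM the fat cell sums of the groups overlapped (746.5 to 913 in C26 and 861.9 to 6545.3 in Control muscle), and the fibroblast and endothelial sums did not. Single markers differed from the sums: the endothelial genes Pecam1 and Vwf had log2 fold changes of 0.03 and 0.25, and Lpl, on the fat list, of 0.44. The part of these cells in the members' values was not tested.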

How the data were processed

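The authors made the deposited FPKM values from single-end reads of 50 bases, with adaptor, low-quality and rRNA reads removed, by alignment with bowtie2 and estimation with RSEM. The study's methods name GRCm38.p5, whereas the submitters' processing notes name mm9 with HISAT2 2.0.4, Bowtie2 2.2.5 and RSEM 1.2.12. Coordinates here come from GENCODE (GRCm38) and RefSeq (GRCm38.p6), not from the deposited values. Depth is unknown, so low FPKM carry a counting error that cannot be given.

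Entrez IDs were matched to symbols for 13327 of 13363 genes. FPKM were rescaled to TPM (sum 1000000) and divided by TMM factors (trimming 30% by log ratio and 5% by mean level, without weights). A pseudocount of 1 was added before log2, which understates changes of low genes. Groups came from the sample titles. C26 and Control were compared with limma 3.58.1 (R 4.3.3), with empirical Bayes moderation and Benjamini-Hochberg adjustment over all listed genes, two-sided, called at an adjusted p under 0.05. The fit was tested on simulated data. The labels number the replicates without naming the animals, so p-values measure the spread between these samples, which may be in part technical. The most alike samples still differed beyond identity, and none was counted as a duplicate.

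The members and lists were chosen with earlier results of these data known, and list counts are descriptions. One gene of iron handling was left out of the lists and is not reported here. Named were the 7 members, every listed ZIP and ZnT gene, Mt3, up to 4 called genes a direction of each other list, and the 5 genes most like Mt1 and Mt2 and most like Slc39a14. Sgk1, Socs3, Cd79b, Cd52, the MTF-1 genes not called and the cell type markers named were picked after their values were seen. The same-numbered samples did not deviate together (r = -0.0394, -0.0843 and -0.112), so numbers were not taken as pairs. Alternatives were a replicate block, quantile normalization, the FPKM taken as deposited, no TMM factors, a pseudocount of 0.1, a minimum mean TPM of 1, an intensity trend and each sample left out. Figures were drawn with matplotlib 3.10.9 under Python 3.11.15.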

Additional observations from a re-analysis of the deposited data

How the results depend on the processing

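The members were selected on this same contrast, so their calls under other settings are descriptions and no support: 3 (Mt1, Mt2 and Slc39a14) were higher in each of the 7 alternatives. Among the results here, 0 called values changed sign. With the FPKM as deposited, 1678 genes were called higher and 2504 lower, against 2589 and 1932 as reported, 148 genes passed the fold criterion in the higher direction against 235, 1 member (Slc39a1) was called lower, and the MTF-1 list had 0 higher and the iron list 5 lower. That scale keeps the lower FPKM sums of the C26 samples. After quantile normalization 1 member (Slc39a1) and 0 other zinc transporters were lower. With a pseudocount of 0.1, 566 genes passed the fold criterion in the lower direction against 231, and 1 copper gene was lower. With a mean TPM of at least 1, which leaves out Slc39a2, 1 other zinc transporter and 1 copper gene were lower, and with an intensity trend 1 copper gene was lower. With the replicate block 1235 genes were lower, 1 other zinc transporter, 1 copper gene and 0 MTF-1 genes were lower, and 0 MTF-1 genes were higher. The block moved the direction or call of no member. Except where shown, the cause was not tested.

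Without 1 sample at a time, 1127 to 3311 genes were called higher and 669 to 2160 lower, and 176 to 376 and 135 to 269 passed the fold criterion. The fewest calls came without C26 replicate 1 (1127 and 669), Control replicate 1 (1151 and 726) and C26 replicate 2 (1528 and 946). Members called were 3 to 4 higher (4 without Control replicate 3, with Slc30a5) and 0 lower. Other zinc transporters were 0 to 1 higher and 0 to 2 lower, MTF-1 genes 0 to 1 in each direction, copper genes 1 to 3 higher and 0 to 2 lower, iron genes 2 to 3 higher and 3 to 5 lower, glucocorticoid-induced genes 10 to 11 higher and STAT3-induced genes 7 to 9 higher and 0 to 1 lower. With 3 muscles a group and unknown depth, differences near the size of those of Mtf1, Slc30a1 and Slc30a5 cannot be resolved.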
